A study of Mus musculus with 12 samples.

Results

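The BH3-only genes encode the members of the BCL2 family that start the mitochondrial, or intrinsic, route of apoptosis. Transcript levels of 8 of them, Bcl2l11 (BIM), Bbc3 (PUMA), Pmaip1 (NOXA), Hrk (Harakiri), Bmf, Bik, Bid and Bad, were followed in the organ of Corti of mice lacking clarin-1, clarin-2 or both. The 8 genes were taken by symbol from the 55348 genes listed in each library, and all 8 were among the 19052 that passed the filter on low counts. RNA sequencing covered 4 genotypes at postnatal day 21 with 3 libraries each, 12 in all. Clrn1-/- mice carried a constitutive deletion of a Clrn1 exon, made by crossing mice with loxP sites around that exon to a PGK-cre line. Clrn2-/- mice carried the clarinet allele, a nonsense mutation of Clrn2, and Clrn1-/-Clrn2-/- mice carried both. Wild-type mice came from separate breedings and were not littermates of these mutants. The organ of Corti, the strip of hair cells and supporting cells that senses sound, was dissected free of the stria vascularis and the modiolus. It is not stated whether a library came from a single animal or from pooled animals, so p-values measure the spread between these libraries. Bcl2l11, Hrk and Bik were named by the study from these same libraries. Neither their direction nor a count or median of the members that includes them is independent evidence here.

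Counts on genes ranged from 30008679 to 41049302 per library. Clrn1, the targeted gene, lay between 23.8 and 28.6 CPM, the count scaled to the size of its library, in wild-type libraries and between 2.69 and 3.04 in Clrn1-/- libraries, and from 1.77 to 2.71 in Clrn1-/-Clrn2-/- libraries. Clrn2 averaged 2.72 ± 0.727 CPM (SD, n = 3) in wild-type mice, 1.23 ± 0.172 in Clrn2-/- and 1.08 ± 0.138 in Clrn1-/-Clrn2-/- mice. It was also low, at 0.916 ± 0.107, in Clrn1-/- mice, which carry no engineered change in Clrn2, so its level does not tell the mutant genotypes apart. Of the markers of hair cells, supporting cells and neurons, none was at 0 in all libraries of a genotype. In wild-type libraries Schwann cell markers summed to 20507 to 21659 CPM and neuron markers to 16493 to 18215. Hair cell markers summed to 640 to 703 CPM there, and markers of the stria vascularis and melanocytes to 658 to 999. The levels below are thus those of mixed tissue with much nerve and glial RNA.

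BH3-only proteins sense cell stress and bind through their BH3 helix to the antiapoptotic proteins BCL2, BCL-XL, BCL-W and MCL1, which frees or directly activates BAX and BAK to permeabilize the mitochondrial outer membrane. Some of them, such as BIM, PUMA, NOXA and Harakiri, are controlled largely through their transcription, whereas BID is switched on by proteolysis and BAD by loss of phosphorylation. Damaged hair cells and auditory neurons can die by this route, for example after aminoglycoside or noise exposure.

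The BH3 helix is the one feature that all these proteins share, and the stretch of coding sequence that holds its core is shown for 7 of the genes from the Gencode M21 transcripts. Each line gives 36 bases, and the capitals mark the codons of the leucine and the aspartate that the BH3 core has in all of them.
Bcl2l11: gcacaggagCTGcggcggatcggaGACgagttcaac
Bbc3: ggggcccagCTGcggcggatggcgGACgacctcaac
Hrk: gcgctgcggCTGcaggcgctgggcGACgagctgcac
Bmf: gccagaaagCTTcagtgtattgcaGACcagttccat
Bik: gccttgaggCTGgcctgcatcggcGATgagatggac
Bid: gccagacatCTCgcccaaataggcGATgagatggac
Bad: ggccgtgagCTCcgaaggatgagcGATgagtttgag
On GRCm38 these stretches lie at chr2:128147141-128147176 on the + strand for Bcl2l11, in exon 3 of the 4 of the transcript used, at chr7:16313764-16313799 on the + strand for Bbc3, in exon 3 of 4, and at chr5:118169882-118169917 on the + strand for Hrk, in exon 1 of 2. They lie at chr2:118545100-118545135 on the - strand for Bmf, in exon 4 of 5, at chr15:83543075-83543110 on the + strand for Bik, in exon 3 of 5, at chr6:120897289-120897324 on the - strand for Bid, in exon 4 of 6, and at chr19:6950783-6950818 on the + strand for Bad, in exon 3 of 4. Outside the marked codons no stretch equals another throughout, though parts are shared, such as the end of the Bik and Bid stretches. The motif searched also required glycine, alanine or serine just before the aspartate, and it occurs once in each transcript used. Some genes also have transcripts without the motif, which 4 of 5 Bcl2l11 transcripts with a full coding start held, 1 of 3 for Bbc3 and 2 of 3 for Bid, and the counts add up all transcripts of a gene.

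Levels differed widely between the genes. On the scale of CPM per kilobase of exon, which allows a comparison between genes, Bad was the most abundant in wild-type mice with 10.8 ± 0.334 (SD, n = 3), followed by Bmf with 4.97 ± 0.173. Bcl2l11 and Bik were level at 2.51 ± 0.00942 and 2.51 ± 0.0784, ahead of Hrk with 1.88 ± 0.298. Bbc3 with 1.17 ± 0.134 and Bid with 1.14 ± 0.173 did not differ beyond their spread. Pmaip1 was the lowest at 0.133 ± 0.0797, from 7 to 22 counts per library. Counting error alone amounts to 27.4% of the Pmaip1 level of a wild-type library and 10.4% for Bbc3, against 3.65% for Bcl2l11 and 3.12% for Bad, so small differences in Pmaip1 could not be detected at this depth.

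**Figure D1:**
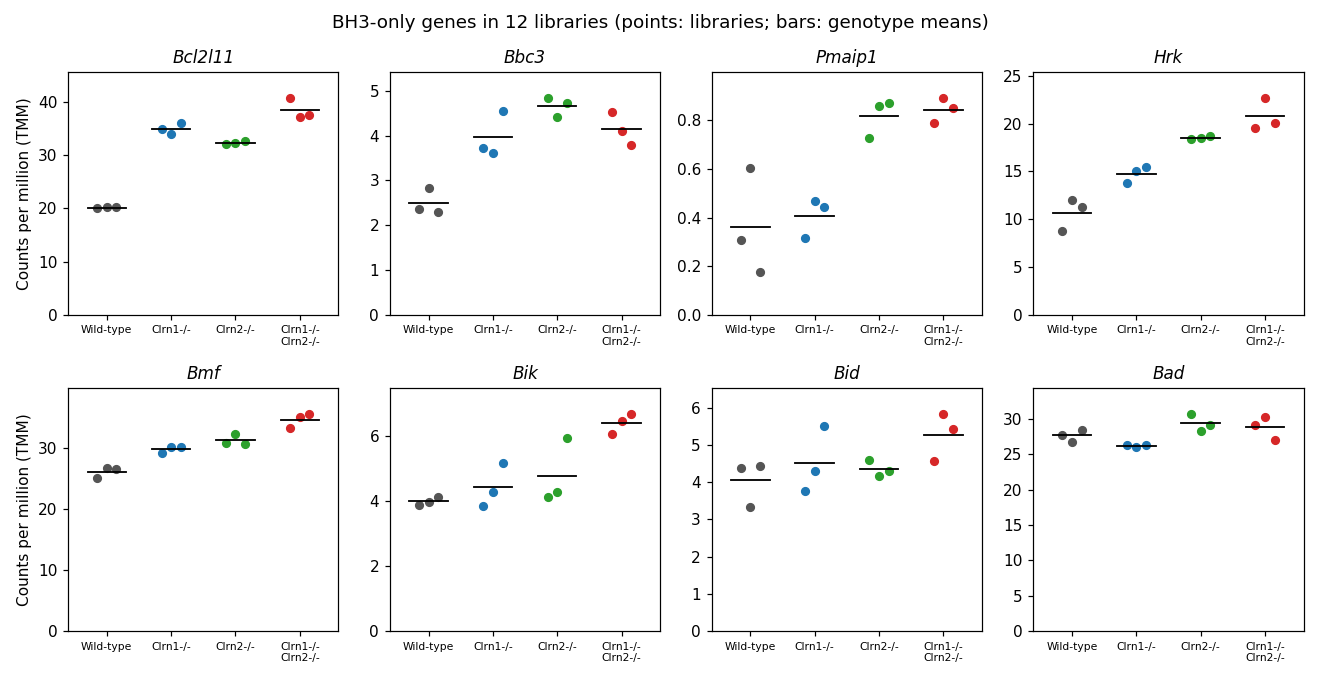
Level of each BH3-only gene in CPM (y axis, from 0, a separate scale per gene) in the 4 genotypes (x axis). Points are the 12 libraries and bars are genotype means of 3. All 9 mutant libraries lie above the 3 wild-type libraries for Bcl2l11, Bbc3, Hrk and Bmf, and Bad shows no such separation.

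BH3-only genes were over-expressed relative to wild-type in each mutant, and the double mutant had the most of them. A gene counted as called when the edgeR quasi-likelihood test gave it an adjusted p no higher than 0.05 (Benjamini-Hochberg over all genes tested) and its level changed 1.5-fold or more. By this rule 2 of the 8 were over-expressed in Clrn1-/- mice, namely Bcl2l11 and Bbc3, where 3.52% of all genes tested were. In Clrn2-/- mice 4 were over-expressed, Bcl2l11, Bbc3, Pmaip1 and Hrk, against 1.24% of all genes. In Clrn1-/-Clrn2-/- mice 5 were over-expressed, the same genes and Bik, against 5.88%. None was under-expressed in any mutant, as 3.70%, 1.42% and 4.02% of all genes were in Clrn1-/-, Clrn2-/- and double mutant mice. The median log2 fold change of the 8 was 0.19 in Clrn1-/-, 0.47 in Clrn2-/- and 0.71 in double mutant mice, where that of all genes was -0.003, -0.002 and 0.001. These 3 comparisons share the wild-type libraries.

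Without the minimum of 1.5-fold, 4, 5 and 6 of the 8 passed the adjusted p in the upward direction, against 13.6%, 7.14% and 19.1% of all genes. In Clrn1-/- mice these were Bcl2l11, Bbc3, Hrk and Bmf, in Clrn2-/- mice Pmaip1 was added, and in the double mutants Bik was added. The 3 libraries of the mutant all lay above the 3 of wild-type for 4 genes in Clrn1-/-, for 6 in Clrn2-/- and for 7 in double mutant mice, where 20.5%, 14.6% and 25.0% of all genes did so.

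**Figure D2:**
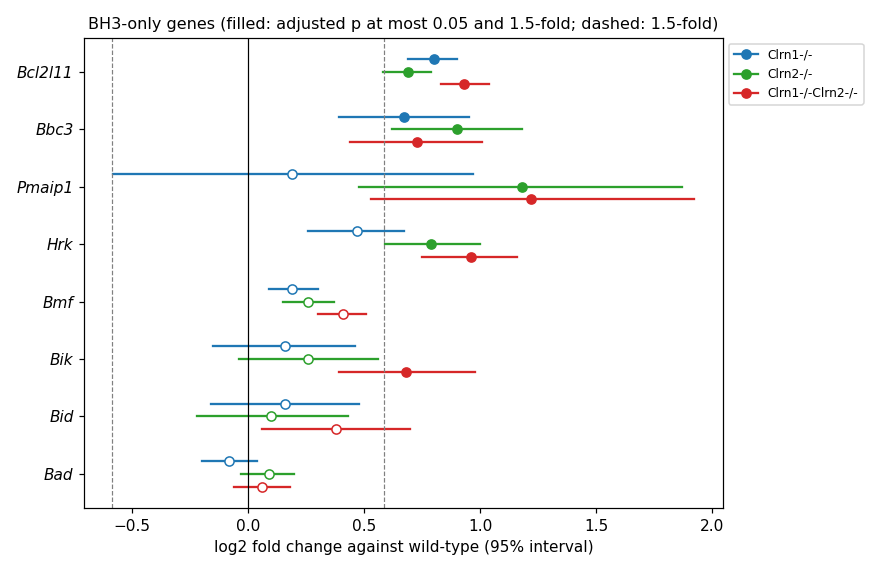
log2 fold change against wild-type (x axis) of the 8 BH3-only genes in Clrn1-/-, Clrn2-/- and Clrn1-/-Clrn2-/- mice, with 95% intervals as lines. Filled circles are called genes and dashed lines mark 1.5-fold, and filled circles are found for Bcl2l11 and Bbc3 in all mutants, for Pmaip1 and Hrk in Clrn2-/- and the double mutants, and for Bik in the double mutants alone.

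Bcl2l11 encodes BIM, which binds all antiapoptotic BCL2 proteins and can activate BAX directly. Its 3 wild-type libraries had 20.1, 20.2 and 20.2 CPM. Clrn1-/- libraries had 34.9, 34.0 and 36.1 CPM, Clrn2-/- libraries 32.1, 32.4 and 32.7, and Clrn1-/-Clrn2-/- libraries 40.8, 37.2 and 37.6. Every mutant library lay well above wild-type, and none of the 4 genotypes overlapped with another. Relative to wild-type, the log2 fold change was 0.80 ± 0.051 (SE, adjusted p = 2.05e-08, edgeR) in Clrn1-/-, 0.69 ± 0.051 (6.28e-07) in Clrn2-/- and 0.93 ± 0.050 (1.9e-09) in double mutant mice, or 1.74-fold, 1.61-fold and 1.91-fold. Wild-type libraries varied by 0.286%, less than the 3.65% that counting error gives, so this closeness is no measure of the spread between wild-type samples. The edgeR fit takes its spread from all 4 genotypes.

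Bbc3 encodes PUMA, which also binds all antiapoptotic members and is a classical target of p53. Wild-type libraries had 2.36, 2.82 and 2.30 CPM, and Clrn1-/- libraries 3.73, 3.62 and 4.55. Clrn2-/- libraries had 4.84, 4.41 and 4.72 CPM, and those of the double mutant 4.52, 4.10 and 3.79. All mutant libraries lay above wild-type, while the 3 mutants overlapped with each other. The change was 0.67 ± 0.13 on the log2 scale in Clrn1-/- (adjusted p = 0.0015, edgeR), 0.90 ± 0.13 in Clrn2-/- (0.000266) and 0.73 ± 0.13 in double mutant mice (0.000434). Without Clrn1-/- replicate 3, the highest of its genotype, the first of these fell to 0.56, below 1.5-fold, with an adjusted p of 0.00938, and 1 BH3-only gene rather than 2 was called there.

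Pmaip1 encodes NOXA, which binds mainly MCL1. It rested on few reads, with 11, 22 and 7 counts in wild-type libraries and 10, 18 and 17 in Clrn1-/-. Clrn2-/- libraries had 27, 28 and 31 counts, and those of the double mutant 24, 30 and 33. In CPM, wild-type had 0.309, 0.603 and 0.177, Clrn1-/- 0.316, 0.466 and 0.442, Clrn2-/- 0.726, 0.857 and 0.871, and the double mutant 0.787, 0.892 and 0.851. Both genotypes without clarin-2 lay above wild-type and Clrn1-/- in every library, whereas wild-type and Clrn1-/- overlapped. The log2 change was 1.18 ± 0.33 in Clrn2-/- (adjusted p = 0.0254, edgeR), 1.22 ± 0.33 in Clrn1-/-Clrn2-/- (0.00783) and 0.19 ± 0.36 in Clrn1-/- mice (0.743), the last with a 95% interval from -0.58 to 0.97. The Clrn2-/- call was lost under 5 of 19 alternatives, a fit of the compared genotypes alone, and without Clrn2-/- replicate 2 or 3 or Wild-type replicate 1 or 3, with adjusted p-values from 0.0711 to 0.0873 and the change past 1.5-fold in each. DESeq2 gave it no adjusted p. The call in the double mutant was kept under all 20. Single wild-type libraries decided the size of the change, which ran from 0.83 without replicate 3 to 1.75 without replicate 2 in Clrn2-/- mice, and from 0.87 to 1.79 in the double mutant.

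Hrk encodes Harakiri, which binds BCL-XL and is known from dying neurons. Wild-type libraries had 8.77, 12 and 11.3 CPM, and Clrn1-/- libraries 13.8, 15 and 15.5. Clrn2-/- libraries had 18.4, 18.5 and 18.7 CPM, and Clrn1-/-Clrn2-/- libraries 19.5, 22.7 and 20.1. Its level was stepped across the genotypes, with no overlap between any of them. The log2 change was 0.47 ± 0.098 in Clrn1-/- (adjusted p = 0.00233, edgeR), under 1.5-fold, 0.79 ± 0.097 in Clrn2-/- (6.46e-05) and 0.96 ± 0.096 in double mutant mice (1.24e-06).

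Bmf encodes a protein that is held at the myosin V motor through dynein light chain 2 until it is released. Its wild-type libraries had 25.1, 26.7 and 26.6 CPM, and those of Clrn1-/- mice 29.3, 30.2 and 30.2. Clrn2-/- libraries had 30.8, 32.4 and 30.7 CPM and double mutant libraries 33.3, 35.2 and 35.6. No mutant library overlapped with wild-type, yet the changes were small, with log2 values of 0.19 ± 0.050 (adjusted p = 0.00929, edgeR), 0.26 ± 0.050 (0.00234) and 0.41 ± 0.050 (9.2e-06), all under 1.5-fold.

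Bik encodes a protein of the endoplasmic reticulum membrane. Wild-type libraries had 3.88, 3.97 and 4.12 CPM, Clrn1-/- libraries 3.86, 4.27 and 5.17, Clrn2-/- libraries 4.14, 4.28 and 5.93, and double mutant libraries 6.06, 6.48 and 6.68. The libraries of the double mutant lay above all others, the nearest being 1 Clrn2-/- library. Its log2 change was 0.68 ± 0.14 (adjusted p = 0.00107, edgeR), and those of Clrn1-/- and Clrn2-/- mice were 0.16 ± 0.14 (0.463) and 0.26 ± 0.14 (0.253), with 95% intervals from -0.15 to 0.46 and from -0.04 to 0.56.

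Bid and Bad, whose proteins are set mainly by cleavage and by phosphorylation, did not pass the test in any mutant. Bid, the link from caspase-8 to mitochondria, had means of 4.05 ± 0.614 CPM (SD, n = 3) in wild-type, 4.52 ± 0.893 and 4.35 ± 0.223 in the Clrn1-/- and Clrn2-/- mutants and 5.27 ± 0.650 in the double mutant. Its log2 change in the double mutant was 0.38 with a 95% interval from 0.06 to 0.70 and an adjusted p of 0.0573 (edgeR). Bad had 27.7 ± 0.855 CPM in wild-type and 26.2 ± 0.157, 29.4 ± 1.23 and 28.8 ± 1.63 in the 3 mutants in the same order, with log2 changes of -0.08, 0.09 and 0.06 and 95% intervals within -0.20 and 0.20. Its Clrn1-/- libraries lay just below those of wild-type, and the other mutants overlapped with wild-type. Both genes share exonic bases with a gene on the opposite strand, Bid 628 with Bcl2l13 and Bad 524 with Gpr137, by Gencode M21. Counts on the opposite strand made up 46.6% to 63.0% of both strands together at Bid and 11.5% to 15.1% at Bad, so the values above use the strand of the gene alone. At Bcl2l11 and Bmf the opposite strand held at most 0.514% and 0.505%.

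The mutants were then compared with each other. Between Clrn1-/- and Clrn2-/- mice, 1 of the 8 genes was called, against 4.73% of all genes in either direction. This was Pmaip1, with a log2 difference of -0.98 ± 0.32 (adjusted p = 0.0449, edgeR), lower in Clrn1-/- mice. Without the fold minimum 3 genes passed, all lower in Clrn1-/- mice, against 18.5% of all genes, the other two being Hrk with -0.33 ± 0.094 (adjusted p = 0.0245) and Bad with -0.17 ± 0.055 (0.0454). The Pmaip1 difference stayed past 1.5-fold in all 20 alternatives, between -1.09 and -0.85, but missed the adjusted p in 12 of them, with values from 0.0507 to 0.146. These were DESeq2, counts without regard to strand and leaving out any single library other than Wild-type replicates 2 and 3.

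Relative to Clrn1-/- mice, the double mutant had 1 called gene, again Pmaip1, with a log2 difference of 1.03 ± 0.32 (adjusted p = 0.0233, edgeR), against 7.23% of all genes. It stayed past 1.5-fold in all 20 alternatives, at 0.88 or more, but missed the adjusted p without Clrn1-/- replicate 1 or 3 or Clrn1-/-Clrn2-/- replicate 2 or 3, with values from 0.0544 to 0.0869. Bik was called in its place without Clrn1-/- replicate 3, with a difference of 0.64. Without the fold minimum 5 genes passed, all higher in the double mutant, against 30.4% of all genes. Hrk differed by 0.49 ± 0.094 (adjusted p = 0.000828), Bik by 0.53 ± 0.14 (0.00822), Bmf by 0.21 ± 0.050 (0.00354) and Bcl2l11 by 0.14 ± 0.049 (0.0436).

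Relative to Clrn2-/- mice, no BH3-only gene was called in the double mutant, against 5.10% of all genes. Without the fold minimum 3 passed, against 27.6%, and all 3 were higher in the double mutant. These were Bcl2l11 with a log2 difference of 0.25 ± 0.049 (adjusted p = 0.00149, edgeR), Bik with 0.42 ± 0.14 (0.0324) and Bmf with 0.15 ± 0.050 (0.0376). Without Clrn2-/- replicate 3, the highest Bik library of its genotype, Bik rose to 0.59 and was called (adjusted p = 0.00386). For Pmaip1 the difference was 0.05 with a 95% interval from -0.57 to 0.67, and for Hrk 0.16 with one from -0.03 to 0.36.

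Whether the effects of losing Clrn1 and Clrn2 add up was tested with their interaction on the log2 scale. Wild-type mice came from separate breedings, and a difference particular to the wild-type libraries enters the change of each single mutant. Such a difference cannot be told apart here from effects that do not add up. For Bbc3 the changes of the single mutants sum to 1.57, while the double mutant changed by 0.73, a difference of -0.85 ± 0.18 (adjusted p = 0.0049, edgeR). For Bcl2l11 they sum to 1.48 against 0.93, a difference of -0.55 ± 0.070 (adjusted p = 8.71e-05), under the 1.5-fold minimum. Bbc3 was thus the only gene called, 1 of 8 against 5.50% of all genes, and 2 of 8 passed without the minimum, both with the double mutant below the sum, against 17.4%. Hrk had -0.30 ± 0.13 (adjusted p = 0.142) and Pmaip1 -0.15 ± 0.46 (0.875). Bik had 0.27 ± 0.20 (0.404), with a 95% interval from -0.16 to 0.69, which includes additive effects. Leaving out Clrn1-/- replicate 2 or Clrn1-/-Clrn2-/- replicate 1 brought Bcl2l11 to -0.59 and -0.61 and so past 1.5-fold, giving 2 called genes in place of 1.

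**Figure D3:**
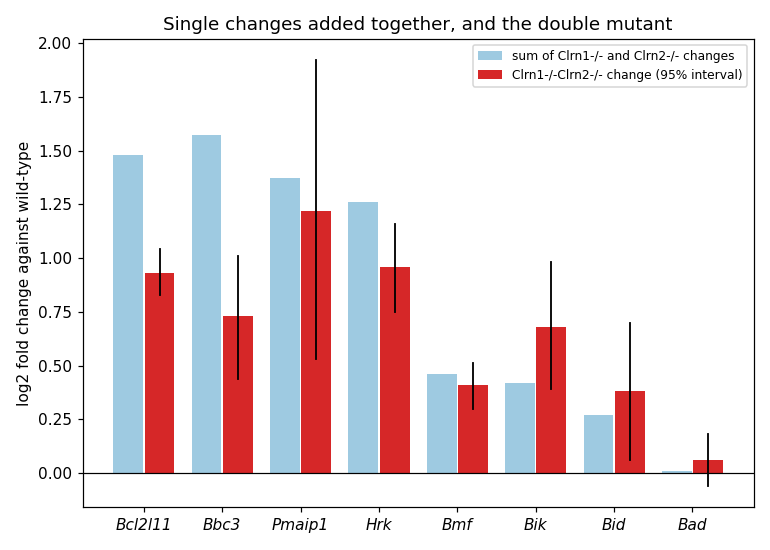
For each BH3-only gene, the sum of the log2 fold changes of Clrn1-/- and Clrn2-/- mice against wild-type (pale bars) beside the change in Clrn1-/-Clrn2-/- mice (red bars, with its 95% interval as a line). The y axis is the log2 fold change, and the double mutant falls well short of the sum for Bcl2l11 (0.93 against 1.48) and Bbc3 (0.73 against 1.57).

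Promoter sequence of the members was read from the RefSeq promoter table on GRCm38.p6, which holds 12 windows of 300 bases, from 250 before to 50 after a start site, for 6 of the 8 genes. These were searched on both strands for the FOXO core GTAAACA, the AP-1 site TGACTCA or TGAGTCA, the cAMP response element TGACGTCA, and TGATGNAA, the composite site of CHOP and ATF4. No motif overlaps another in these windows. A match was found in 3 windows, 1 each of Bcl2l11, Bbc3 and Hrk, and the 200 bases from position -250 to -51 of these are shown with the match in capitals.
Bcl2l11: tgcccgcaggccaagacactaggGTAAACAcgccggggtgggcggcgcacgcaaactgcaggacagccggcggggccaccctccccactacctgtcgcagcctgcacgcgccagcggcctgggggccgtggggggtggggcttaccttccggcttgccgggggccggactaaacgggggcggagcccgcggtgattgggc
Bbc3: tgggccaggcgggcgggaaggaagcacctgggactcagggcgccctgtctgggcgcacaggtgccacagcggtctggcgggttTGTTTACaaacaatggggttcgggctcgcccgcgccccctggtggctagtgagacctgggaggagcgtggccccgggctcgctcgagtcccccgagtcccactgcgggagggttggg
Hrk: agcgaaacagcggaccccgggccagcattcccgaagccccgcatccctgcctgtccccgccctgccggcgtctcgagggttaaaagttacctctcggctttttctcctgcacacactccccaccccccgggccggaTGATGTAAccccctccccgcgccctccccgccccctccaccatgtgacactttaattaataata
The Bcl2l11 stretch is chr2:128125788-128125987 on the + strand, just before the first annotated start of the gene, with the FOXO core at position -227. The Bbc3 stretch is chr7:16310011-16310210 on the + strand, inside an intron of the transcripts that start further upstream, with the FOXO core on the reverse strand at -167. The Hrk stretch is chr5:118169514-118169713 on the + strand, with the CHOP and ATF4 composite at -114. The FOXO core was found in 3.65% of all 32851 promoter windows and the composite in 3.97%. The AP-1 site, in 5.2% of all windows, and the cAMP response element, in 1.79%, were in none of the members' windows. These are matches of letters and no evidence of binding.

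The other genes of the pathway were 82 in 8 lists, of which 78 were tested. In Clrn1-/- mice 1 of them was called, lower, in Clrn2-/- mice 2, both higher, and in the double mutant 6, of which 5 were higher and 1 lower. Of all genes tested, 3.52% were called higher and 3.70% lower with Clrn1 lost, 1.24% higher and 1.42% lower with Clrn2 lost, and 5.88% higher and 4.02% lower with both lost. The counts of pathway genes were below these shares in Clrn1-/- mice and near or below them in the double mutant. In Clrn2-/- mice the 2 higher genes of 78 lay above the share of 1.24%, and none was lower. None of the 5 antiapoptotic genes tested of the 8 listed was called. Mcl1 had log2 changes of 0.08, 0.14 and 0.27 in Clrn1-/-, Clrn2-/- and Clrn1-/-Clrn2-/- mice, Bcl2 0.04, 0.12 and 0.16, Bcl2l1 (BCL-XL) 0.01, 0.04 and 0.05 and Bcl2l2 (BCL-W) 0.25, 0.22 and 0.04. Of these, Mcl1 and Bcl2 in the double mutant passed the adjusted p (9.98e-05 and 0.025, edgeR), as did Mcl1 in Clrn2-/- mice (0.0336) and Bcl2l2 in both single mutants (0.00232 and 0.0105). The list's median was 0.08, 0.14 and 0.16, beside 0.19, 0.47 and 0.71 for the BH3-only genes.

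The effectors Bax, Bak1 and Bok, which form the pore, included no called gene either. Bok changed most, with log2 values of 0.44 ± 0.097, 0.55 ± 0.096 and 0.40 ± 0.097 (adjusted p = 0.00352, 0.00124 and 0.00419, edgeR), all under 1.5-fold. Bak1 had 0.22, 0.04 and 0.27 and Bax -0.12, 0.08 and 0.08. No inhibitor of apoptosis of 5, and no gene of 8 for partners that hold BH3-only proteins, such as dynein light chains and 14-3-3 proteins, was called in any mutant.

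Among the other BCL2-family genes, Bcl2l14 (BCL-G) was over-expressed in the double mutant, from 2.78 ± 0.419 CPM (SD, n = 3) in wild-type to 7.28 ± 0.487, a log2 change of 1.39 ± 0.13 (adjusted p = 4.61e-07, edgeR). No other of the 8 genes in that list was called. Of 14 apoptosome and caspase genes, 1 was called, Diablo (SMAC), which counters the inhibitors of apoptosis. It was lower in Clrn1-/- mice by a log2 value of -0.62 ± 0.098 (adjusted p = 0.000224), a call lost with library size alone, with counts without regard to strand and without Clrn1-/- replicate 3 or Wild-type replicate 2.

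Of 17 tested genes of the p53 list, Gdf15, a secreted stress cytokine, was called in Clrn2-/- mice (log2 1.04 ± 0.33, adjusted p = 0.0448, edgeR) and in the double mutant (1.32 ± 0.32, 0.00393), and Tnfrsf10b, a death receptor, in the double mutant (0.75 ± 0.14, 0.00061). The Gdf15 call in Clrn2-/- mice was lost in 10 of 20 alternatives, limma-voom and the omission of any single library other than Clrn2-/- replicate 2 and Clrn1-/-Clrn2-/- replicates 1 and 3, with adjusted p-values from 0.0514 to 0.148 and the change between 0.90 and 1.26 over all 20. The remaining genes, Trp53 and Mdm2 among them, were not called, and the list's median was 0.06, 0.08 and 0.12. Of 18 inducers of BH3-only transcription outside p53, the stress-responsive factor Atf3 averaged 7.36 ± 1.06 CPM in wild-type mice. Its means were 10.3 ± 0.954 with Clrn1 lost, 20.1 ± 2.30 with Clrn2 lost and 29.3 ± 1.04 with both lost. It was called in Clrn2-/- (log2 1.45 ± 0.10, adjusted p = 6.28e-07) and double mutant mice (1.99 ± 0.10, 1.22e-09). Egr1, an immediate-early factor, rose in the double mutant (1.08 ± 0.13, 9.01e-06), and Mapk10, which encodes the neuronal kinase JNK3, was lower by a log2 value of -0.59 ± 0.053 (4.06e-07), a call that was lost with library size alone and without Clrn1-/-Clrn2-/- replicate 1 or Wild-type replicate 3. Foxo3, Jun, Atf4 and the remaining genes of the list were not called.

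**Figure D4:**
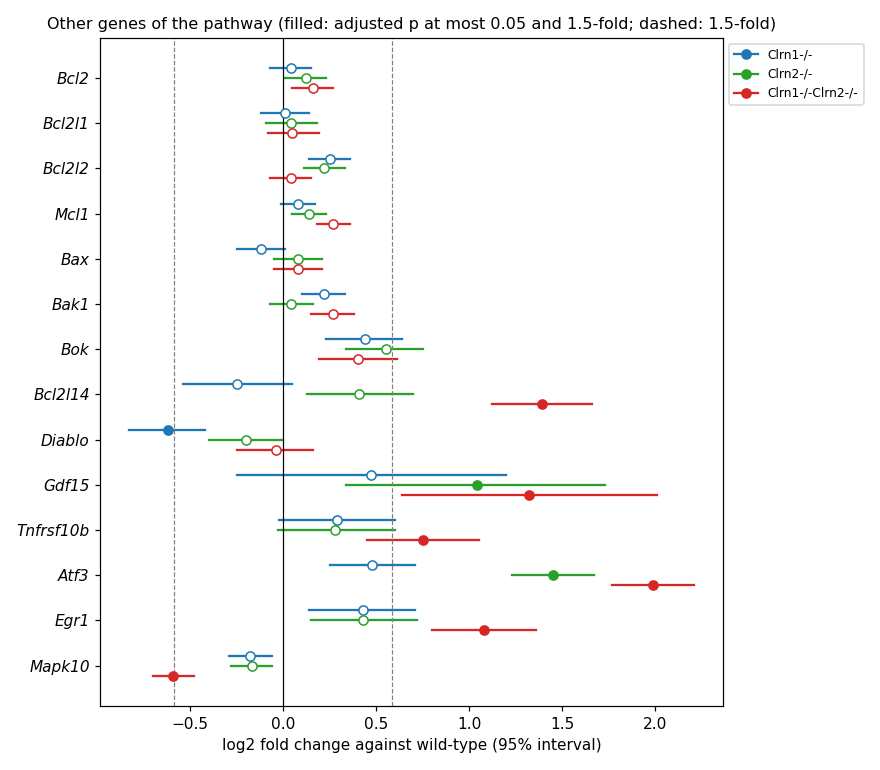
log2 fold change against wild-type (x axis) of other genes of the intrinsic apoptosis pathway in the 3 mutants, with 95% intervals as lines, filled circles for called genes and dashed lines at 1.5-fold. The antiapoptotic genes and effectors (Bcl2 to Bok) hold no filled circle, and Atf3 reaches 1.99 in the double mutant.

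Transcript levels of cell type markers moved with genotype in these bulk samples, where fewer cells of a type and less RNA per cell cannot be told apart. Of all genes tested, 3.52%, 1.24% and 5.88% were called higher and 3.70%, 1.42% and 4.02% lower in Clrn1-/-, Clrn2-/- and double mutant mice. The summed level of 20 neuron markers was 16493 to 18215 CPM in wild-type libraries, 14676 to 15334 with Clrn1 lost, 14447 to 16737 with Clrn2 lost and 11414 to 11768 with both lost. Of the 20, 5 were called lower and 3 higher in the double mutant, against 1 higher in Clrn2-/- mice and none in Clrn1-/- mice. At the adjusted p alone, 9, 5 and 14 of the 20 were lower and 2, 2 and 3 higher in Clrn1-/-, Clrn2-/- and double mutant mice. The 14 supporting cell markers summed to 2628 to 2884 CPM in wild-type, 2724 to 3040 with Clrn1 lost, 2883 to 3335 with Clrn2 lost and 3826 to 4067 with both lost, with 1, 2 and 5 called higher and 0, 0 and 1 lower in the 3 mutants. The 18 hair cell markers summed to 640 to 703 CPM in wild-type, 625 to 727 with Clrn1 lost, 689 to 835 with Clrn2 lost and 802 to 825 with both lost. Of them 1 was called higher and 5 lower in Clrn1-/- mice, 5 higher and none lower in Clrn2-/- mice, and 4 higher and 2 lower in the double mutant. The 12 macrophage markers summed to 160 to 207 CPM in wild-type, 256 to 276 and 187 to 237 in the Clrn1-/- and Clrn2-/- mutants and 261 to 305 in the double mutant, where 8 were called higher, against 3 in Clrn1-/- and 1 in Clrn2-/- mice, and their median log2 change was 0.51, 0.21 and 0.68 in the 3 mutants.

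Of 8 red blood cell markers, 7, 5 and 2 were called lower in Clrn1-/-, Clrn2-/- and double mutant mice, with medians of -1.36, -0.71 and -0.52. The medians of the other marker lists (Schwann cells, stria vascularis and melanocytes, fibroblasts, bone, skeletal muscle, endothelium, dividing cells, lymphocytes and neutrophils) lay between -0.49 and 0.26. Such medians can hide members that moved. Fibroblast markers summed to 8397 to 10363 CPM in wild-type, 6376 to 7014 with Clrn1 lost, 6261 to 6717 with Clrn2 lost and 8557 to 9878 with both lost. Of 10 lymphocyte and neutrophil markers tested, 4 were called higher in Clrn1-/- mice. Of 10 stria and melanocyte markers, 2 were called higher and 3 lower in the double mutant. No marker of these lists was at 0 in every library of a genotype. The part of these shifts in the levels of the BH3-only genes was not tested.

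The genes whose log2 level followed that of a called member most closely over the 12 libraries are given as a description, since the libraries fall into 4 genotypes and share their depth and composition. Among 15406 genes, Bcl2l11 was followed by Ryr1 (Pearson r = 0.989), Aif1 (0.984), itself one of the macrophage markers, and Insr (0.983). Bbc3 was followed by Cbx6 (r = 0.955), Agpat5 and Anp32b, and Pmaip1 by Kcnj13 (r = 0.950), Klf5 and Ostm1. Hrk was followed by Fbxl14 (r = 0.968), Gadd45a (0.965), a gene of the DNA damage and stress response, and Bmf (0.957), another of the 8 members. Bik was followed by Tmem30b (r = 0.965), Csad and Ush1c, which encodes the Usher protein harmonin (0.962).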

How the data were processed

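RNA was sequenced from organs of Corti of 4 genotypes at postnatal day 21, with 3 libraries each. The deposited values are raw counts of reads per gene, which the authors made with STAR on GRCm38.p6 with the Gencode M24 annotation, per the labels and the study's methods, without normalization or pooling. Poly-A libraries were strand-specific, and the reverse-strand column, 95.2% to 95.6% of stranded counts, was used. The 4 totals of reads not on a gene, 13.5% to 15.8%, were left out.

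The analysis used edgeR 4.0.16 under R 4.3.3. The filterByExpr function, at a minimum count of 10, chose the genes tested, and libraries were scaled by TMM (factors 0.963 to 1.02) and fitted over all 12 libraries with genotype alone. Comparisons used the quasi-likelihood test with Benjamini-Hochberg adjustment over 19052 genes. CPM values use the TMM library sizes, and standard errors come from the test statistic. Counting error is that of independent reads. Replicates differed by more than sampling noise. Gene positions, exon lengths and coding stretches came from Gencode M21, an earlier release of the same build. The pipeline was tested on simulated data. Alternatives were limma-voom (limma 3.58.1), DESeq2 1.42.0, no fold minimum, library size alone, unstranded counts, no filter, a replicate block, a fit to the compared genotypes alone and leaving out each library.

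Replicate numbers have no stated meaning. Deviations from genotype means correlated at over 0.1 in all 3 same-numbered pairs of wild-type and Clrn1-/- libraries (0.291, 0.134 and 0.111, over 12453 genes of at least 5 CPM), and in no other comparison. The numbers may thus pair that comparison. The tests reported here did not use this pairing, and a replicate block over all 12 libraries was run as an alternative only.

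Members, pathway lists, markers and alternatives were chosen with earlier results of these data known. Named genes are all members, Clrn1 and Clrn2, the effectors and main antiapoptotic genes, the called genes of each pathway list (up to 3 per direction with a mean of at least 1 CPM), and the 3 genes with the highest correlation with each called member. Of the marker lists, summed levels, counts of called markers or medians are given in place of single genes, not all of them for each list.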

Additional observations from a re-analysis of the deposited data

Results flagged for a closer look

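Effects that differed between genotypes by both the adjusted p and the 1.5-fold minimum were found for 2 of the BH3-only genes. Under that minimum, the Bcl2l11 interaction and the Hrk and Bad differences between the single mutants passed the adjusted p. For Bbc3, the effect of losing Clrn1 differed with and without Clrn2, with an interaction of -0.85 on the log2 scale (adjusted p = 0.0049, edgeR quasi-likelihood test). It kept its direction and stayed past the thresholds in all 19 alternatives, between -0.96 and -0.75. With wild-type mice from separate breedings, this interaction cannot be told apart from a difference particular to the wild-type libraries.

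For Pmaip1, the change from wild-type differed between Clrn1-/- and Clrn2-/- mice by -0.98 on the log2 scale (adjusted p = 0.0449, edgeR), lower in all 3 Clrn1-/- libraries than in all 3 of Clrn2-/-, on 10 to 31 counts per library. The difference stayed between -1.09 and -0.85 in all 20 alternatives, past 1.5-fold, and its adjusted p missed 0.05 in 12 of them, from 0.0507 to 0.146. Groups of 3 libraries are too small for a test of single outlying samples.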

How the results depend on the processing

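Over the alternatives, 857 of 917 values of single genes kept their direction and their side of the thresholds, 39 lost the call, 18 gained it and 3 turned direction. The last were uncalled changes that turned when 1 library was left out, with ranges over the libraries from -0.15 to 0.77 for Pmaip1 in Clrn1-/- mice, from -0.00022 to 0.28 for Bid in Clrn1-/- mice and from -0.01 to 0.17 for Bid in Clrn2-/- mice. Bcl2l11 against wild-type stayed called in all 20 alternatives in each mutant. With the replicate block, the BH3-only genes called against wild-type stayed at 2, 4 and 5 in Clrn1-/-, Clrn2-/- and Clrn1-/-Clrn2-/- mice, and no other count changed. With no fold minimum they were 4, 5 and 6 against wild-type, 3 between the single mutants, 5 and 3 for the double mutant against Clrn1-/- and Clrn2-/-, and 2 for the interaction. The other pathway genes called against wild-type were then 26, 20 and 35 of 78 tested. Of all 19052 genes, 2593 were then higher and 2537 lower in Clrn1-/- mice. In Clrn2-/- mice 1360 were higher and 1347 lower, and in the double mutant 3632 and 3415. With DESeq2 and with unstranded counts, no BH3-only gene was called between the single mutants (0 in place of 1). With library size alone and with unstranded counts, 0 other pathway genes were called in Clrn1-/- mice, and limma-voom called 1 in Clrn2-/- mice. When each library was left out in turn, BH3-only genes called were 1 to 2 in Clrn1-/-, 3 to 4 in Clrn2-/- and 5 throughout in double mutant mice, 0 to 1 between the single mutants and for the double mutant against each single one, and 1 to 2 for the interaction. The other pathway genes called were 0 to 2, 1 to 2 and 5 to 10 (10 without Wild-type replicate 2). The compared genotypes alone could not be fitted for the interaction. The causes were not tested. Depth limits Pmaip1, with 7 to 33 counts per library.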

Other observations

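Several other genes of the pathway differed between the mutants, each by edgeR's quasi-likelihood test. Between Clrn1-/- and Clrn2-/- mice, 1 of 8 other BCL2-family genes was called, lower, and of 18 inducers 1 higher and 3 lower. No gene of the remaining pathway lists was called there, and 4.73% of all genes tested were, in either direction. Over the 78 pathway genes tested this was near that share. Ddit3, which encodes CHOP, was lower in Clrn1-/- than in Clrn2-/- mice by a log2 difference of -0.65 ± 0.061 (adjusted p = 2.39e-06), as were the stress pseudokinase Trib3 (-0.78 ± 0.15, 0.0025), Atf3 (-0.97 ± 0.10, 7.01e-06) and Bcl2l14 (-0.66 ± 0.14, 0.00325), with no overlap between the libraries of the 2 genotypes for any of them. Dlx5, a homeobox factor, was higher in Clrn1-/- than in Clrn2-/- mice by 0.89 ± 0.20 (adjusted p = 0.00654). Bcl2l14 and Diablo departed from additive effects of the 2 mutations, with interactions of 1.22 ± 0.19 (adjusted p = 0.000358) and 0.78 ± 0.14 (0.00111), the double mutant lying above the sum of the single changes for both, where Bbc3 and Bcl2l11 lay below it. Other pathway genes also lay below the sum, with 1 of 17 tested genes of the p53 list called. Bok (-0.58 ± 0.14, 0.00742) and Bcl2l2 (-0.42 ± 0.073, 0.000992) passed the adjusted p under 1.5-fold. Of all genes tested, 5.50% were called for the interaction.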
